A study of Mus musculus with 6 samples.

Results

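The 10 genes described here encode the D-type cyclins (*Ccnd1*, *Ccnd2*, *Ccnd3*), their partner kinases (*Cdk4*, *Cdk6*), inhibitors of cyclin-dependent kinases (*Cdkn1a*, *Cdkn1b*, *Cdkn1c*, *Cdkn2c*) and the retinoblastoma protein (*Rb1*). They were found by gene symbol among 24469 loci of an RNA-Seq table, and for *Rb1*, whose symbol stands at 3 loci, the most abundant locus was used. The members were chosen from results of these same libraries in which *Ccnd1* and *Ccnd2* were already known to be higher with either FGF1 protein than under high glucose alone. Their differences from high glucose alone, and the counts past a threshold made from them, are therefore a description, and no p-value is printed for them. All 10 were in the table, 9 of them with a mean of at least 1 FPKM (fragments scaled to transcript length and to the fragments of the library), the level needed for testing, and 10562 loci were tested in all. *Cdkn1c* was below that level.

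The cells were a murine podocyte cell line of passage 10 to 15 that divides at 33 °C with interferon gamma and was differentiated at 37 °C without it for 10 days. Conditional immortalization of this kind usually rests on a temperature-sensitive viral oncoprotein that binds the retinoblastoma protein; the sources used here do not name the transgene. All 6 libraries came from cells starved of serum for 12 h and then kept in 25 mM glucose for 12 h. The 2 HG libraries had no pretreatment, the 2 rFGF1WT libraries followed 1 h with 100 ng/mL recombinant wild-type FGF1, and the 2 rFGF1ΔHBS libraries followed 1 h with the same dose of an FGF1 altered in its heparan sulfate-binding site. The labels do not say that replicates were separate cultures, so the errors below measure only the spread between these libraries, and no library from cells in normal glucose was analysed here. In such bulk samples fewer cells of a type and less RNA per cell cannot be told apart.

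The labelled cell type was checked against defining markers. Of 12 podocyte markers, 11 were in the table and 7 were below 1 FPKM in every library, among them *Wt1*, *Ptpro* and *Lmx1b*, while *Podxl* and *Cd2ap* were present at means of 16.0 and 60.7 FPKM. The 5 tubular markers in the table summed to 157.8 to 158.4 FPKM under HG, 116 to 118 with rFGF1WT and 109 to 122 with rFGF1ΔHBS, with *Cdh16* and *Lrp2* present and *Slc12a1* and *Aqp2* near 0. The mesangial markers summed to 34.5 to 35.3, 29.6 to 30.9 and 29.7 to 30.8 FPKM in the same order, nearly all of it *Pdgfrb*. In the endothelial list 5 of 6 markers, *Pecam1*, *Kdr* and *Cdh5* among them, were below 1 FPKM in every library, with sums of 3.29 to 3.56, 1.20 to 3.02 and 2.93 to 3.04 FPKM. In the macrophage list 4 of 6 were below 1 FPKM, with *Adgre1* and *Ptprc* near 0. Its sums of 60.9 to 62.8, 66.9 to 69.6 and 71.1 to 71.2 FPKM came mostly from a locus in which *Cd68* is merged with *Eif4a1*. Of its other genes, *Csf1r* was at 9.56 and 10.7 FPKM under HG and at 3.21 to 3.94 FPKM with the proteins. The tubular, mesangial, endothelial and macrophage sums differed between HG and both proteins without overlap, and their part in the results below was not tested.

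Cells commit to a round of division in G1. Growth factor signalling through the MAP kinase cascade raises D-type cyclins, which bind and activate CDK4 and CDK6. These kinases phosphorylate the retinoblastoma protein, which then releases E2F transcription factors and with them the genes of DNA replication. INK4 inhibitors such as the product of *Cdkn2c* bind CDK4 and CDK6 alone, and the CIP/KIP inhibitors p21, p27 and p57 (*Cdkn1a*, *Cdkn1b*, *Cdkn1c*) bind cyclin-CDK complexes. The podocyte of the kidney filter normally stays out of the cell cycle, and p27 and p57 are known as inhibitors of its mature state.

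*Ccnd1* and *Ccnd2* were several fold higher with either FGF1 protein, while *Ccnd3*, *Cdk4* and *Rb1* stayed near their HG level. The inhibitor *Cdkn2c* differed more between the replicates of every group than between group means. *Cdkn1a* did so in HG and rFGF1ΔHBS, but its rFGF1WT replicates were close to each other. Adjusted p under 0.05 (limma over all loci tested, Benjamini-Hochberg) was reached by 2 of the 9 members tested against HG with each protein, both of them higher and past a 2-fold difference. Over all loci tested that share was 6.19% with rFGF1WT and 6.26% with rFGF1ΔHBS in either direction, 3.26% and 3.37% for higher loci alone, and 0.521% and 0.454% for higher loci past 2-fold. Both comparisons use the same 2 HG libraries, these counts carry the knowledge with which the members were chosen, and the shares over all loci depend on the number of libraries fitted: without any 1 library 121 to 194 loci passed in place of 654 and 661. The median log2 difference over the 9 members was 0.09 with rFGF1WT and 0.04 with rFGF1ΔHBS, against -0.04 and -0.04 over all loci tested.

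**Figure D1:**
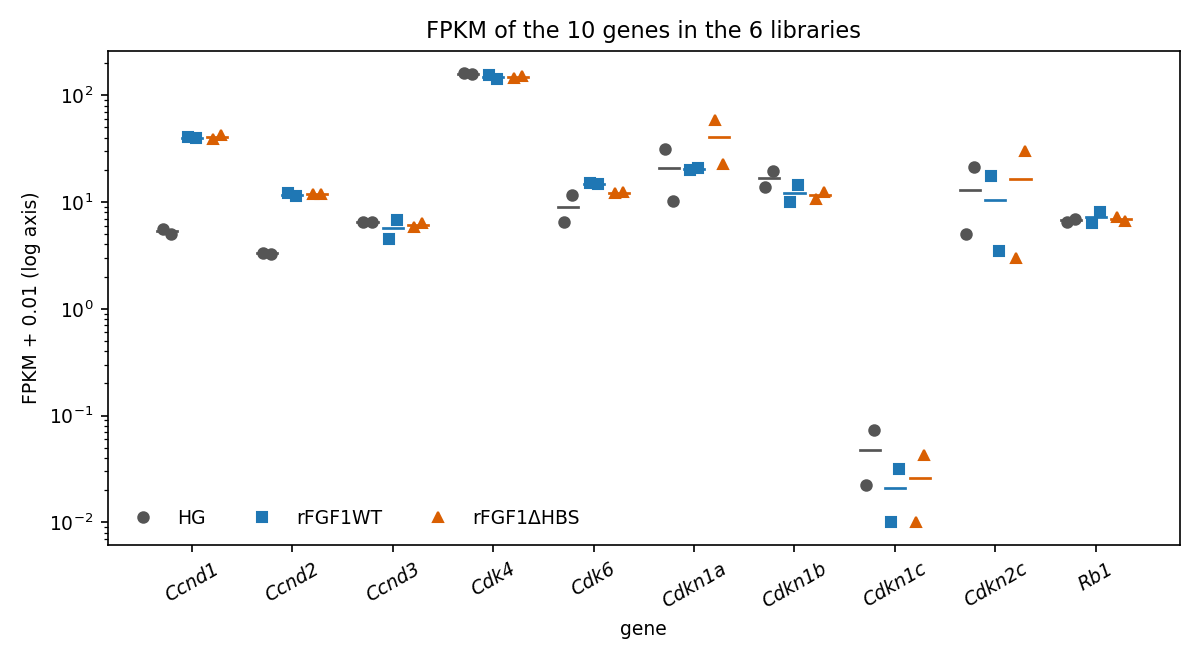
Level of the 10 genes in each of the 6 libraries, in FPKM plus 0.01 on a log axis; each point is 1 library and each short line the mean of a group of 2. *Ccnd1* and *Ccnd2* separate HG from both proteins, and *Cdk4* lies near 150 FPKM throughout at a mean of 151. *Cdkn2c* scatters within every group and *Cdkn1a* within HG and rFGF1ΔHBS.

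*Ccnd1* encodes cyclin D1, the D-type cyclin best known as a target of growth factor and MAP kinase signalling. In the GRCm38 annotation (GENCODE M21) it lies on the minus strand at chr7:144929931-144939925, with 2 to 5 exons among the annotated transcripts of its locus. Its level was 5.53 and 5.05 FPKM under HG, 40.2 and 39.5 FPKM with rFGF1WT, and 39.1 and 42.5 FPKM with rFGF1ΔHBS. Every library with a protein stood far above both HG libraries, and the ranges of the 2 proteins overlapped. The group means were 5.29 ± 0.340, 39.9 ± 0.475 and 40.8 ± 2.38 FPKM (SD, n = 2 each), so that mean FPKM was 7.54 times the HG level with rFGF1WT and 7.72 times with rFGF1ΔHBS. On the log2(FPKM + 1) scale used for testing, which gives smaller differences for low levels, the differences were 2.70 (SE 0.07, 95% interval 2.51 to 2.89) and 2.73 (SE 0.07, 2.54 to 2.92). The 3' end of *Ccnd1* shares 1100 of its 4709 annotated exon bases with *LTO1* on the opposite strand, and the sources used here do not say whether counting used strand. The *LTO1* locus, named *Oraov1* in the table, was at 0.793 to 1.05 FPKM in all 6 libraries.

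*Ccnd2* encodes cyclin D2 and lies on the minus strand at chr6:127125162-127152193. It was the lowest D-type cyclin under HG, at 3.33 and 3.27 FPKM, and reached 12.1 and 11.3 FPKM with rFGF1WT and 11.9 and 11.9 FPKM with rFGF1ΔHBS. Again no library with a protein came near the HG libraries. Means of 3.30 ± 0.0413, 11.7 ± 0.613 and 11.9 ± 0.0544 FPKM (SD, n = 2 each) put it at 3.55 and 3.61 times the HG level. The log2 differences were 1.56 (SE 0.06, 1.40 to 1.73) and 1.59 (SE 0.06, 1.42 to 1.75). Its 2 overlapping antisense genes were at or below 0.119 FPKM in every library.

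*Ccnd3*, which encodes cyclin D3 and lies on the plus strand at chr17:47505051-47599691, did not follow the other D-type cyclins. It stood at 6.52 and 6.43 FPKM under HG, 4.52 and 6.82 FPKM with rFGF1WT, and 5.86 and 6.31 FPKM with rFGF1ΔHBS. The rFGF1WT libraries lay on both sides of the HG libraries, and both rFGF1ΔHBS libraries were slightly below them. The log2 differences from HG were -0.19 (-0.67 to 0.30) and -0.08 (-0.56 to 0.41), neither past the threshold. The intervals leave room for a modest change in either direction but end well below the differences of *Ccnd1* and *Ccnd2*. *Bysl*, which shares 361 exon bases with *Ccnd3* on the opposite strand, itself ranged from 2.36 to 7.69 FPKM.

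The D-type cyclins were summed in each library, since they share their kinase partners. The sum was 15.4 and 14.8 FPKM under HG, 56.9 and 57.6 FPKM with rFGF1WT, and 56.9 and 60.8 FPKM with rFGF1ΔHBS, so the group means were 3.80 and 3.90 times that of HG. The make-up of the sum also differed. Under HG *Ccnd3* was the largest part, at 42.4% and 43.6%, with *Ccnd1* at 36.0% and 34.2%. With the proteins *Ccnd1* made up 68.6% to 70.7% in all 4 libraries and *Ccnd3* 7.95% to 11.8%. The share of *Ccnd2* was between 19.6% and 22.2% in every library. *Ccnd1* was 1.66 and 1.54 times *Ccnd2* under HG, and 3.30 to 3.56 times *Ccnd2* in the 4 libraries with a protein. These are proportions of mRNA per length and say nothing of the proteins, which were not measured in this table.

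**Figure D2:**
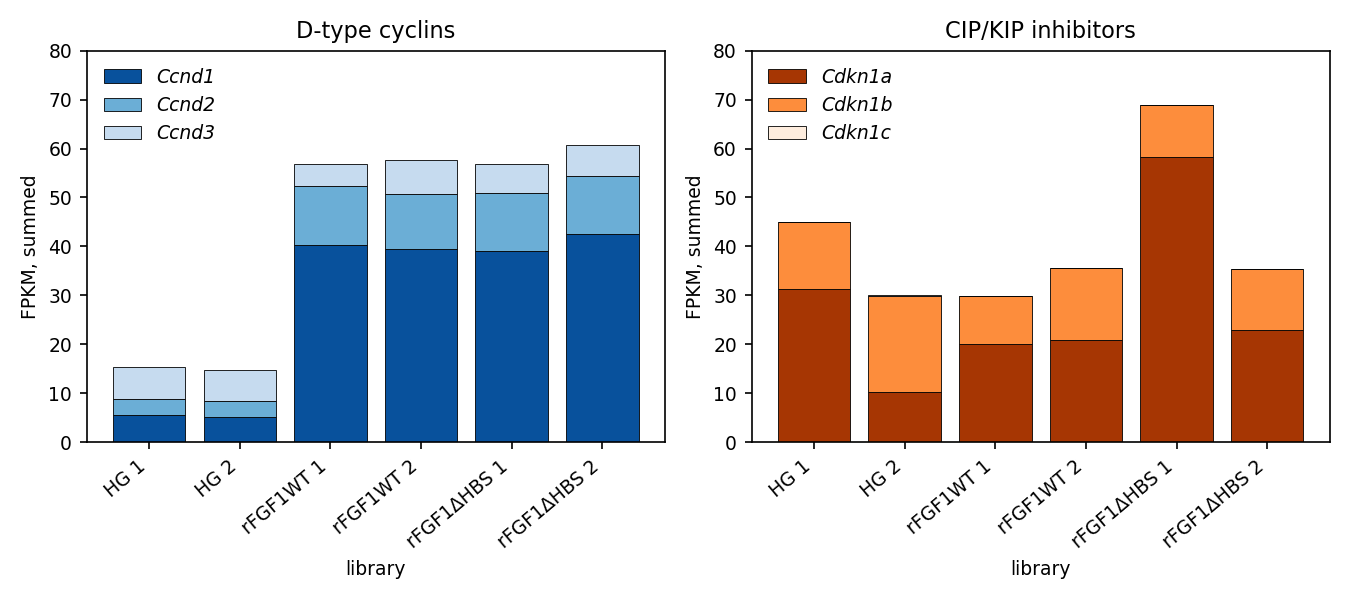
Stacked FPKM in each library of the 3 D-type cyclins (left) and of the 3 CIP/KIP inhibitors (right). The cyclin sum goes from about 15 FPKM, at a mean of 15.1, in HG to between 56.9 and 60.8 with the proteins, mostly *Ccnd1*, while the inhibitor sum varies between 29.9 and 68.8 with overlapping groups and *Cdkn1c* too low to see.

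*Cdk4*, the kinase partner on the plus strand at chr10:127063534-127067920, was by far the most abundant of the 10. Its level was 160.8 and 156.5 FPKM under HG, 155.5 and 141 FPKM with rFGF1WT, and 144 and 150 FPKM with rFGF1ΔHBS. All 4 libraries with a protein were below the lower HG library, the nearest of them only slightly. The log2 differences, -0.10 (-0.27 to 0.07) and -0.11 (-0.28 to 0.06), did not pass the threshold, and both intervals are narrow, so that a rise or fall of *Cdk4* of the size seen for the cyclins lies outside them. *Tspan31*, on the opposite strand with 641 shared exon bases, was at 37.6 to 44.4 FPKM.

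The bases before the RefSeq transcription start of *Cdk4* are shown because this gene, unlike *Ccnd1* and *Ccnd2*, stayed level at the highest abundance of the list. The window is the 250 bases upstream of the start, GRCm38.p6 plus strand, chr10:127063285-127063534, with CACGTG in capitals, the letters of the E-box bound by MYC and related factors.
Cdk4: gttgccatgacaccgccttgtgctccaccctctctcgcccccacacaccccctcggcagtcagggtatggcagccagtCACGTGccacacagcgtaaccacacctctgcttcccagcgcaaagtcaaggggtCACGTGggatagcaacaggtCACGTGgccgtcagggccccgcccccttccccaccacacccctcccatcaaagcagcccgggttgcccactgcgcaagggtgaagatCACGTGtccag
It holds 4 matches, whose first bases lie 172, 118, 98 and 11 bases before the start. Both strands were searched, which for this palindrome is the same search, and no match overlaps another. Of all 32851 RefSeq windows of this length, 6.02% hold at least 1. RefSeq windows were found for 6 members (9 windows: *Ccnd3*, *Cdkn1a* and *Cdkn2c* have more than 1), of which *Cdk6* also holds 1 match. The other 4 members, *Ccnd1*, *Ccnd2*, *Cdkn1c* and *Rb1*, had no window, so their upstream bases were not searched. None of the 9 windows found holds TGACTCA, the AP-1 motif, on either strand, which 4.46% of all windows hold. They also lack the E2F-type words TTTCCCGC, TTTCGCGC, TTTGCCGC and TTTGGCGC on either strand, at least 1 of which 1.86% of all windows hold. A match is a description of letters and not evidence of binding.

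*Cdk6*, the other kinase partner, lies on the plus strand at chr5:3341485-3531008. It stood at 6.52 and 11.6 FPKM under HG, 14.9 and 14.8 FPKM with rFGF1WT, and 12.1 and 12.3 FPKM with rFGF1ΔHBS. All 4 libraries with a protein were above both HG libraries, but HG replicate 2 was close to the rFGF1ΔHBS libraries. The log2 difference was 0.70 (0.02 to 1.39) with rFGF1WT and 0.44 (-0.24 to 1.13) with rFGF1ΔHBS, neither past the threshold after adjustment. The result rested on the HG libraries: without HG replicate 2 the differences were 1.07 and 0.81, both past the threshold, and without HG replicate 1 they were 0.33 and 0.07. Either leaves a single HG library, assumed to vary like the libraries of the other groups. *Cdk4* was 24.6 and 13.5 times *Cdk6* under HG and 9.52 to 12.2 times *Cdk6* with the proteins. The sum of both kinases, 155 to 170 FPKM, was set by *Cdk4* and was 10.9 and 11.4 times the D-type cyclin sum under HG, and 2.67 to 2.997 times it with the proteins.

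Among the CIP/KIP inhibitors, *Cdkn1a* encodes p21, which p53 and stress signalling induce, and lies on the plus strand at chr17:29090976-29100727. Its level was 31.2 and 10.2 FPKM under HG, 20.0 and 20.9 FPKM with rFGF1WT, and 58.3 and 22.8 FPKM with rFGF1ΔHBS. Replicates of HG and of rFGF1ΔHBS each differed more than 2-fold, and both rFGF1WT libraries fell between the HG libraries. The log2 differences from HG, 0.17 (-1.66 to 2.01) and 0.98 (-0.85 to 2.82), did not pass the threshold. The spread of *Cdkn1a* within groups, 0.82 on the log2 scale, was larger than that of 95.1% of loci tested, so a 2-fold change would not have been detectable here.

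*Cdkn1b* encodes p27, whose protein level is set largely by its turnover, and lies on the plus strand at chr6:134920401-134925513. It was at 13.7 and 19.7 FPKM under HG, 9.92 and 14.6 FPKM with rFGF1WT, and 10.6 and 12.5 FPKM with rFGF1ΔHBS. The rFGF1ΔHBS libraries were both below the lower HG library, and the rFGF1WT libraries overlapped with HG. The log2 differences were -0.42 (-1.11 to 0.27) and -0.48 (-1.17 to 0.21), neither past the threshold. *Cdkn1c*, which encodes p57 and lies on the minus strand at chr7:143458339-143461050, was listed at 0.0122 and 0.0629 FPKM under HG, 0 and 0.0217 FPKM with rFGF1WT, and 0 and 0.0323 FPKM with rFGF1ΔHBS. These values are near 0 in every group, and no fold is given. The CIP/KIP sum was 45.0 and 29.98 FPKM under HG, 29.9 and 35.5 FPKM with rFGF1WT, and 68.8 and 35.4 FPKM with rFGF1ΔHBS, with all groups overlapping.

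*Cdkn2c*, which encodes the INK4 inhibitor p18 and lies on the minus strand at chr4:109660876-109667189, had the least reproducible level of the list. It was 5.004 and 21.1 FPKM under HG, 17.6 and 3.50 FPKM with rFGF1WT, and 2.98 and 29.9 FPKM with rFGF1ΔHBS. In each group 1 library was at most 5.004 FPKM and the other at least 17.6 FPKM, so the groups overlapped entirely. Its spread within groups, 1.66 on the log2 scale, exceeded that of 98.6% of loci tested, and its 95% intervals, -4.03 to 3.36 with rFGF1WT and -3.75 to 3.64 with rFGF1ΔHBS, allow large changes in either direction. The locus holds 2 annotated transcripts of 1106 and 2471 bases; whether the assignment of reads to them differed between libraries was not tested.

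*Rb1* encodes the pocket protein on which the D-type cyclin kinases act and lies on the minus strand at chr14:73183673-73325822. Its main locus was at 6.50 and 6.91 FPKM under HG, 6.38 and 8.11 FPKM with rFGF1WT, and 7.27 and 6.59 FPKM with rFGF1ΔHBS. The groups overlapped, with log2 differences of 0.09 (-0.24 to 0.43) and 0.04 (-0.29 to 0.38). It shares 488 exon bases with *Rcbtb2* and 408 with *Lpar6*, both on the opposite strand. *Rcbtb2* was at 5.82 to 6.56 FPKM. *Lpar6* was at 3.51 to 5.28 FPKM in 5 libraries and at 0.00946 FPKM in rFGF1WT replicate 2, the library with the highest *Rb1* level, and its part in that level was not tested.

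**Figure D3:**
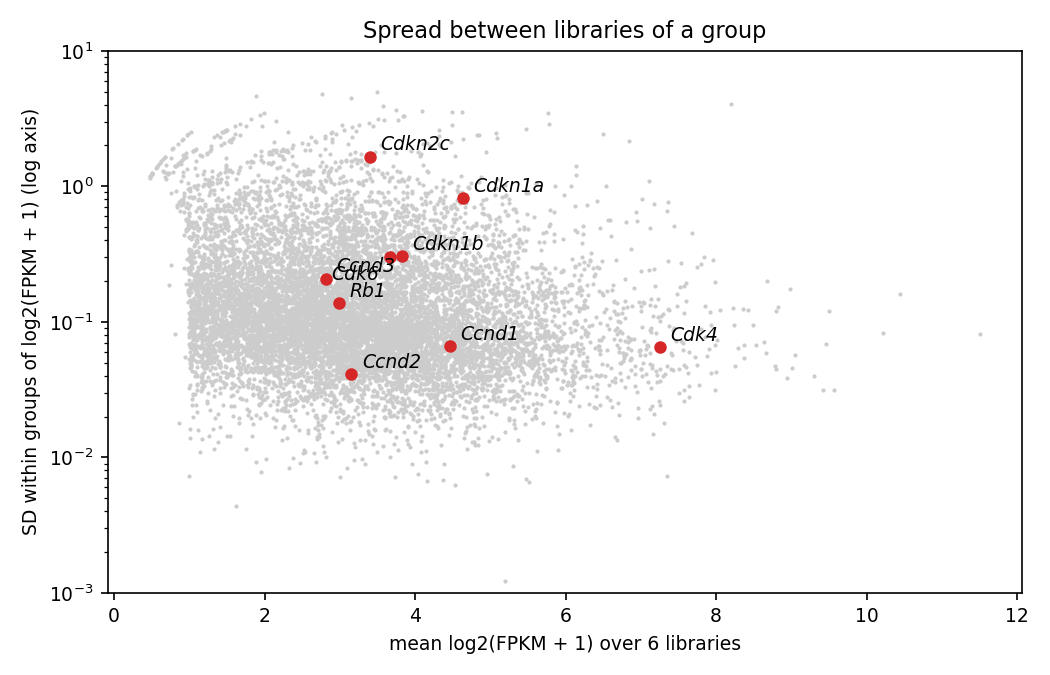
Spread within groups (SD of log2(FPKM + 1), log axis) against the mean log2(FPKM + 1) over the 6 libraries for the 10562 loci tested, with the 9 members tested in red. *Cdkn2c* and *Cdkn1a* lie high in the cloud, above 98.6% and 95.1% of loci, while *Ccnd2* and *Ccnd1* lie above 11.1% and 27.9%.

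Precision therefore differed greatly among the members. *Ccnd2*, *Cdk4* and *Ccnd1* had within-group spreads larger than 11.1%, 27.4% and 27.9% of loci tested, *Rb1* and *Ccnd3* than 60.1% and 73.5%, and *Cdk6* and *Cdkn1b* than 82.0% and 82.2%. In order of mean level under HG the members ran from *Cdk4* (159 FPKM) through *Cdkn1a* (20.7), *Cdkn1b* (16.7), *Cdkn2c* (13.1), *Cdk6* (9.04), *Rb1* (6.70), *Ccnd3* (6.47), *Ccnd1* (5.29) and *Ccnd2* (3.30) to *Cdkn1c* (0.0376). Neighbours from *Cdkn1a* down to *Ccnd3* had overlapping libraries, whereas *Cdk4*, *Ccnd1*, *Ccnd2* and *Cdkn1c* were separate from their neighbours. With rFGF1WT *Ccnd1* took the second place, with both libraries above those of *Cdkn1a*; with rFGF1ΔHBS *Ccnd1* and *Cdkn1a* overlapped.

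The direct comparison of the proteins asks whether the altered heparan sulfate-binding site changed the response of these genes at the same dose and time. None of the 9 members passed in limma's test of rFGF1ΔHBS against rFGF1WT, and none had an unadjusted p under 0.05; over all loci tested 0.549% passed. *Ccnd1* differed by 0.03 on the log2 scale (SE 0.07, 95% interval -0.16 to 0.22, adjusted p = 0.994 by limma) and *Ccnd2* by 0.02 (SE 0.06, -0.14 to 0.19, adjusted p = 1). On the fold scale of FPKM + 1 these intervals run from 0.897 to 1.17 for *Ccnd1* and from 0.907 to 1.14 for *Ccnd2*. For *Cdk4* the interval was -0.18 to 0.16 and for *Rb1* -0.38 to 0.29. It was wider for *Ccnd3* (-0.38 to 0.59), *Cdk6* (-0.95 to 0.43) and *Cdkn1b* (-0.75 to 0.63). *Cdkn1a* (0.81, -1.03 to 2.64) and *Cdkn2c* (0.28, -3.42 to 3.98) were compared too loosely to bound a difference. A p that misses the threshold does not show that the proteins act alike on these genes.

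**Figure D4:**
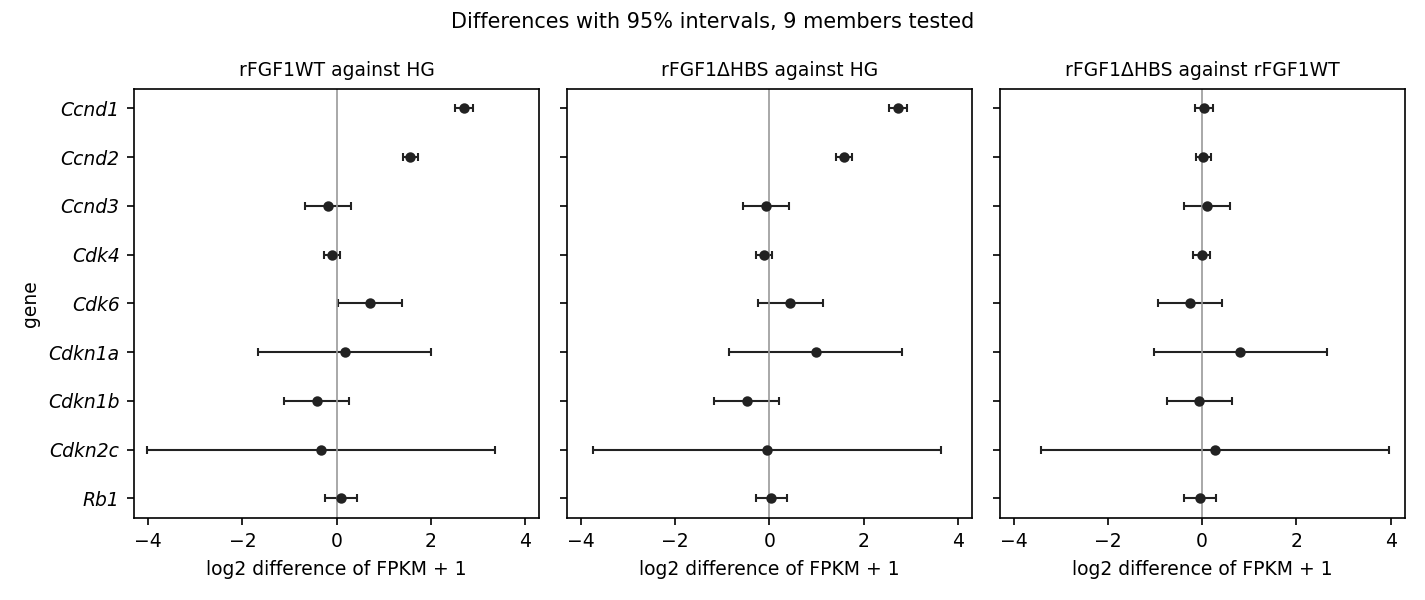
Differences in log2(FPKM + 1) with 95% intervals from the limma fit for the 9 members tested, in the 3 comparisons of 2 libraries with 2. The intervals of *Ccnd1* (2.51 to 2.89 and 2.54 to 2.92 against HG) and *Ccnd2* lie above 0 against HG and span 0 between the proteins. Both genes were known to be higher than under HG when the members were chosen, so their intervals against HG are a description. Those of *Cdkn2c* span most of the axis.

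The machinery that acts with and after the D-type cyclins was read from a list of 30 further G1-S genes. Like the E2F target and mitosis lists below, it was chosen with earlier results of these data known. Counts and adjusted p-values for these lists are therefore a description. Against HG 2 of them rose with rFGF1WT and 1 with rFGF1ΔHBS, and none fell, a share of 6.67% and 3.33% beside 6.19% and 6.26% of all loci tested. The median log2 difference of the list was 0.10 with each protein, beside -0.04 over all loci. *Cdc25a*, the phosphatase that activates CDK2, rose with both. It was at 3.01 and 2.90 FPKM under HG, 5.66 and 5.67 FPKM with rFGF1WT, and 5.34 and 5.34 FPKM with rFGF1ΔHBS, with no overlap between HG and the proteins. The log2 differences were 0.75 (SE 0.06, adjusted p = 0.0133 by limma) and 0.68 (SE 0.06, adjusted p = 0.0162), higher in all 4 libraries with a protein than in both HG libraries. *E2f4*, an E2F factor that mostly represses with the pocket proteins, was at 24.5 and 26.4 FPKM under HG, 39.96 and 37.2 FPKM with rFGF1WT, and 29.5 and 30.7 FPKM with rFGF1ΔHBS. It rose with rFGF1WT (log2 difference 0.58, SE 0.07, adjusted p = 0.0236 by limma); with rFGF1ΔHBS the difference was 0.23 (adjusted p = 0.129), and the direct difference between the proteins was -0.35 (-0.53 to -0.17), which did not pass after adjustment. In the rFGF1WT comparison the *Cdc25a* call was lost without any 1 of the HG or rFGF1WT libraries (adjusted p by limma 0.0585 to 0.0631), at differences of 0.73 to 0.77. The *E2f4* call was lost without any 1 of the 6 libraries (0.0643 to 0.0977), at 0.53 to 0.63, and so was that of *Cdc25a* with rFGF1ΔHBS (0.0524 to 0.0705), at 0.66 to 0.70.

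The upstream window of *Cdc25a* is shown because it alone passed with both proteins among the genes of the G1-S, E2F target and mitosis lists. It is the 250 bases before the RefSeq start, GRCm38.p6 plus strand, chr9:109875329-109875578, with an E2F-type word in capitals.
Cdc25a: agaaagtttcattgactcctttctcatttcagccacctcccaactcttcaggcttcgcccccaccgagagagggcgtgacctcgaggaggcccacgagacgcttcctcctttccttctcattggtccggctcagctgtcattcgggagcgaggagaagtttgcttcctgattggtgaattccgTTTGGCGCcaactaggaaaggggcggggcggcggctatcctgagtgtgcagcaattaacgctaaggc
The word TTTGGCGC begins 67 bases before the start, and no CACGTG or TGACTCA is in the window.

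The other genes of the list did not pass. The *Cdkn2a* locus, listed with the INK4 inhibitors, was at 119 to 132 FPKM in all 6 libraries, of the same order as *Cdk4*. The level of a locus does not show which of its transcripts were present. *Cdkn2d*, which encodes the INK4 inhibitor p19, was at 9.53 and 9.23 FPKM under HG, 7.28 and 5.93 FPKM with rFGF1WT, and 6.49 and 7.48 FPKM with rFGF1ΔHBS. All 4 libraries with a protein were below both HG libraries, with log2 differences of -0.46 and -0.38 (adjusted p = 0.113 and 0.15 by limma). Of the cyclins that follow the D-type cyclins, *Ccne1* was at 7.37 to 7.58 FPKM under HG and 8.39 to 9.78 FPKM with the proteins, while *Ccna2* ranged from 48.6 to 69.1 FPKM with overlapping groups. *Tfdp1*, the DNA-binding partner of E2F factors, was at 50.8 and 56.9 FPKM under HG and 65.5 to 67.9 FPKM with the proteins (adjusted p = 0.0773 and 0.0896 by limma). *Gsk3b*, whose kinase marks cyclin D1 for degradation, was at 20.6 to 25.4 FPKM in 5 libraries and 5.73 FPKM in rFGF1ΔHBS replicate 1. These genes were named after their values were seen.

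Genes that E2F factors induce for DNA replication were described from a list of 22. With each protein 1 of the 22 rose (4.55% beside 6.19% and 6.26% of all loci), none fell, and the median log2 differences were -0.04 with rFGF1WT and -0.01 with rFGF1ΔHBS. *Tk1*, thymidine kinase, went from 8.47 and 8.72 FPKM under HG to 12.4 and 11.2 FPKM with rFGF1WT (0.41, adjusted p = 0.0492 by limma) and 11.1 and 11.2 FPKM with rFGF1ΔHBS (0.34, adjusted p = 0.0694). *Rrm2*, a subunit of ribonucleotide reductase, went from 58.3 and 55.2 FPKM to 71.0 and 69.2 FPKM with rFGF1WT (0.30, adjusted p = 0.0507) and 78.1 and 75.3 FPKM with rFGF1ΔHBS (0.43, adjusted p = 0.0259). Each of the 2 genes was higher in all 4 libraries with a protein than in both HG libraries, and each call was lost when any 1 of the 6 libraries was left out, while the differences kept a similar size, 0.34 to 0.48 for *Tk1* with rFGF1WT and 0.39 to 0.47 for *Rrm2* with rFGF1ΔHBS. Over the 16 alternatives fitted, those without 1 library included, the *Tk1* call with rFGF1WT was lost in 10. The *Rrm2* call with rFGF1ΔHBS was lost in 9 of the 16. *Rrm2* with rFGF1WT passed under median-ratio scaling and with a mean FPKM of at least 5 (adjusted p = 0.0368 and 0.0476 by limma). *Mcm4* and *Mcm7* here, and *Mki67* and *Plk1* among the genes of mitosis, were also named after their values were seen. The MCM helicase genes were already high under HG, with *Mcm4* at 125 to 142 FPKM and *Mcm7* at 133 to 139 FPKM, and none of the 7 on the list passed.

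None of 10 genes of mitosis passed against HG with either protein by limma, beside 6.19% and 6.26% of all loci. An unadjusted p under 0.05 was reached by 2 of the 10 with each protein, beside 24.8% and 24.9% of all loci tested. Their median log2 difference was -0.13 with rFGF1WT and -0.06 with rFGF1ΔHBS. *Mki67*, the proliferation marker, was at 61.4 and 61.0 FPKM under HG, 53.4 and 59.3 FPKM with rFGF1WT, and 58.7 and 57.3 FPKM with rFGF1ΔHBS. All 4 libraries with a protein were slightly below both HG libraries. *Plk1*, a mitotic kinase, was at 33.2 to 34.8 FPKM in HG and rFGF1WT libraries and at 44.7 and 52.7 FPKM with rFGF1ΔHBS (log2 difference from HG 0.53, adjusted p = 0.0521 by limma). Over the E2F target and mitosis lists the log2 differences from HG ran from -0.35 to 0.53. Between the proteins no gene of the G1-S, E2F target or mitosis lists passed by limma, and 1, 0 and 1 had an unadjusted p under 0.05, beside 4.87% of all loci tested.

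**Figure D5:**
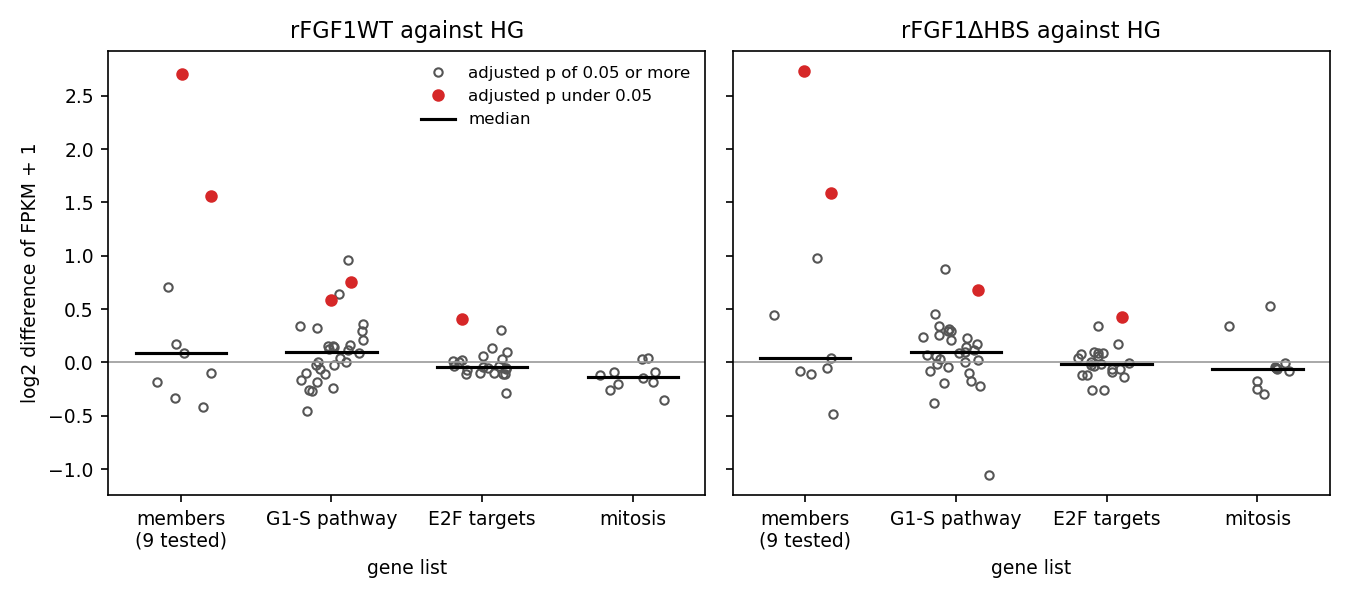
Log2 difference from HG of each gene tested in 4 lists, with rFGF1WT (left) and rFGF1ΔHBS (right); filled points had an adjusted p under 0.05 and black lines are medians. *Ccnd1* and *Ccnd2*, at 2.70 and 1.56 with rFGF1WT, stand above every gene of the G1-S, E2F target and mitosis lists, whose medians lie between -0.13 and 0.10.

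Loci whose pattern was most like that of *Ccnd1* and *Ccnd2* were ranked by the root-mean-square difference, over the 6 libraries, of log2(FPKM + 1) relative to the HG mean, among 10272 loci above 0 in every library. For *Ccnd1* the nearest was a locus without a gene name (difference 0.0924), followed by the ETS transcription factor genes *Etv5* (0.131) and *Etv4* (0.165), the locus that merges *Spp1*, osteopontin, with *Gm42793* (0.420) and *Txnrd3*, a thioredoxin reductase (0.592). *Etv5* was at 0.486 and 0.578 FPKM under HG and at 7.72 to 8.42 FPKM in the 4 libraries with a protein. *Etv4* was at 0.058 and 0.0786 FPKM under HG and at 5.42 to 8.03 FPKM in those libraries. For *Ccnd2* they were *Mycn*, a MYC family factor (0.0842), *F2rl1*, protease-activated receptor 2 (0.0891), *Ccng1*, cyclin G1 (0.191), a locus of *Mical2* merged with 2 other symbols (0.202) and *Spry4*, a feedback inhibitor of FGF signalling (0.223). *Mycn* was at 1.82 and 1.80 FPKM under HG and at 7.03 to 8.26 FPKM with a protein. *Spry4* was at 0.0568 and 0.059 FPKM under HG and at 1.48 to 1.69 FPKM with a protein. Since 1 is added to FPKM, genes near 0 under HG can rank as alike at larger folds of FPKM than the cyclins. The ranking describes likeness in these 6 libraries, which share their treatment, and carries no test. No other member or gene of the G1-S list was among these 10 loci.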

How the data were processed

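Poly(A) RNA of the 6 libraries had been sequenced paired-end, and the authors deposited 1 table of FPKM per merged locus, with no counts and no coordinates. Per the labels, the submitters' processing notes name Bowtie 0.12.2, HISAT2 2.0, StringTie 1.3.0 and the build mm8, without roles; coordinates here come from GENCODE M21 (GRCm38) through the transcripts of each locus, of which all 59 annotated ones of the members matched. Total depth is unknown; steps among values under 0.1 FPKM put the libraries at 0.974 to 1.01 of the depth of HG replicate 1, and FPKM summed to 179594 to 185168. Merged assembly can split or join genes, and estimates for loci with several transcripts depend on how reads were shared among them.

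From these FPKM, log2(FPKM + 1) of loci with a mean of at least 1 was fitted with limma 3.58.1 (trend, R 4.3.3), 1 term per group, 3 residual degrees of freedom, Benjamini-Hochberg over all loci tested; 95% intervals are from this fit. The steps were tested on simulated data. An exact permutation test of 2 against 2 cannot reach 0.05. The members and lists were chosen with earlier results of these data known. All 10 members are named; of each other list, the genes passing in at least 1 comparison (others are marked as named later); and the 5 loci most like *Ccnd1* and *Ccnd2*. Alternatives changed the pseudocount, filter, scaling, normalization, libraries fitted, variance estimate, blocking, locus choice and fold limit, and left out each library. No protein sequence was used here.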

Additional observations from a re-analysis of the deposited data

How the results depend on the processing

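The log2 differences of *Ccnd1* and *Ccnd2* from HG were 2.65 to 2.93 and 1.51 to 1.82 over the 16 alternatives fitted; since these rises were known when the members were chosen, this is a description and no sign of stability. The count of members passing was 2 throughout, except 3 without HG replicate 2, and 0 between the proteins. The count of G1-S genes passing with rFGF1WT, 2, became 1 with a mean FPKM of at least 5 or with only the 4 libraries compared, 0 with the 2-fold limit, and 0 to 1 when 1 library was left out; the count with rFGF1ΔHBS, 1, became 0, 0, 0 and 0 to 1, and between the proteins, 0, it became 0 to 1 (*Gsk3b*, without rFGF1ΔHBS replicate 2). Over all loci the counts passing with rFGF1WT, with rFGF1ΔHBS and between the proteins, 654, 661 and 58, became 407, 386 and 51 without a filter, 547, 585 and 31 above a mean of 5 FPKM, 175, 194 and 45 with only the 4 libraries compared, and 140 to 190, 121 to 194 and 46 to 103 when 1 library was left out; the last fell to 19 among loci above 0 in all libraries. Fewer libraries leave fewer degrees of freedom, and a group left with 1 library is assumed to vary like the others. *Cdc25a*, at a mean of 4.66 FPKM, was not tested under the filter of at least 5 FPKM. The lower G1-S counts under that filter are therefore a gene left untested and not a failed test.

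Replicate numbers in the labels were not said to mark a shared batch, and replicate differences of the groups correlated at -0.0212, 0.098 and -0.0467, so they were not taken as a pairing. With a replicate block 2 members and 0 G1-S genes passed with either protein, and over all loci 41, 39 and, between the proteins, 6.

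Of 621 single-gene values under alternatives, 557 kept direction and side of the threshold, 40 lost it, 4 gained it and 20 changed sign, none of these called. The tally includes *Ccnd1* and *Ccnd2*, whose rises were known beforehand, and alternatives that cannot change a difference, so it is no measure of stability. A robust variance estimate and blocking leave each log2 difference as it was, and summing loci touches only *Rb1* among the genes tallied. *Cdk4* between the proteins turned to 0.0056 under quantile normalization. The other sign changes came from leaving out 1 library, with these ranges. Against HG with rFGF1WT, *Ccnd3* ranged from -0.44 to 0.065, *Cdkn1a* from -0.59 to 0.93, *Cdkn2c* from -1.36 to 0.69 and *Rb1* from -0.060 to 0.24. With rFGF1ΔHBS, *Cdkn2c* ranged from -1.53 to 1.42 and *Rb1* from -0.020 to 0.10. Between the proteins, *Ccnd1* ranged from -0.026 to 0.090, *Ccnd2* from -0.026 to 0.073, *Ccnd3* from -0.14 to 0.36, *Cdk4* from -0.082 to 0.062, *Cdkn1b* from -0.32 to 0.19, *Cdkn2c* from -1.20 to 1.76 and *Rb1* from -0.20 to 0.10.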
